A study of Rattus norvegicus with 6 samples.

Results

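The genes described here encode collagens and other structural proteins of the extracellular matrix, measured in rat kidney transplants on day 100 after transplantation. They were chosen by name from probes with a single gene symbol in the platform annotation: collagen alpha chains, laminins, fibrillins, fibulins, lysyl oxidases and the Sparc genes, with fibronectin, decorin, lumican, biglycan, elastin, osteopontin and Cthrc1, and also, without a named probe here, Postn, Vcan, Tnc and the thrombospondins. The rule found 22 probes of 21 genes, out of 6104 probes of 5990 genes with a single symbol. Where a gene had 2 probes the brighter was used, which concerned Col23a1. Of the 21 genes, 20 were bright enough to be tested, and Col2a1 was not.

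The study compared 3 samples of tolerated allogeneic kidney with 3 samples of syngeneic kidney, with 1 array per sample. Tolerated grafts were LEW.1W kidneys (haplotype RT1u), from donors 8 to 12 weeks old, placed in LEW.1A rats (haplotype RT1a) that received antibodies against donor class II to induce tolerance, and the hosts lost both of their own kidneys on day 7. Syngeneic grafts were LEW.1A kidneys in LEW.1A rats. The strains share their background and differ at MHC class I and II, so that donor haplotype, mismatch and antibody differed together and cannot be told apart. The labels do not say whether each sample is a different animal, so the p-values below speak of the spread among these 6 samples, which may be technical. The kidney marker Umod, of the thick ascending limb, was bright in both groups, with mean log2 levels of 20.39 in tolerated and 20.79 in syngeneic grafts.

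The kidney holds 2 kinds of matrix. Basement membranes, built from laminins and network collagens, underlie tubules and surround glomerular capillaries, and the interstitium between tubules holds a sparse fibrillar matrix of type I, III and V collagen, fibronectin, small proteoglycans and, around arteries, elastic fibres. Fibroblasts, pericytes and smooth muscle cells make most of the fibrillar matrix. When it accumulates between tubules the process is called interstitial fibrosis, a well known feature of kidneys with chronic injury. No network collagen gene (types IV, VIII, X, XV and XVIII) had a named probe in the annotation used here, nor did Col1a1 or Col3a1, and Lamb2 was the laminin measured, so the basement membrane is covered thinly.

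Tolerated grafts had higher levels of most of these genes. Of the 20 tested, 14 rose, 1 fell and 5 did not pass, with limma and p-values adjusted by Benjamini-Hochberg over every tested probe (threshold 0.05). Over all 20142 tested probes 25.2% passed, 12.4% as rises and 12.8% as falls, and over the 4955 tested genes with a name 15.5% rose and 17.2% fell. The median log2 fold change was 1.79 over the 20 genes and -0.02 over all tested probes. For 15 of the 20 genes, the 14 that rose among them, all 3 tolerated arrays lay above all 3 syngeneic arrays. This was so for 23.1% of all tested probes. The groups did not overlap, in either direction, for 17 of the 20 genes and for 47.3% of all tested probes. Fold differences ran from 1.67 for Lamb2 to 23.3 for Cthrc1, whose 3 syngeneic values lay under the brightness threshold for testing. Leaving out 1 array gave 12 risen genes without tolerated replicate 1, 9 without tolerated 2, 8 without tolerated 3, 11 without syngeneic 1, 9 without syngeneic 2 and 15 without syngeneic 3. Of all tested probes 4.01%, 3.89%, 3.49%, 4.57%, 3.11% and 15.1% rose in the same fits, in that order. In bulk tissue a change in the number of cells that make a transcript and a change in its amount per cell cannot be told apart.

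**Figure D1:**
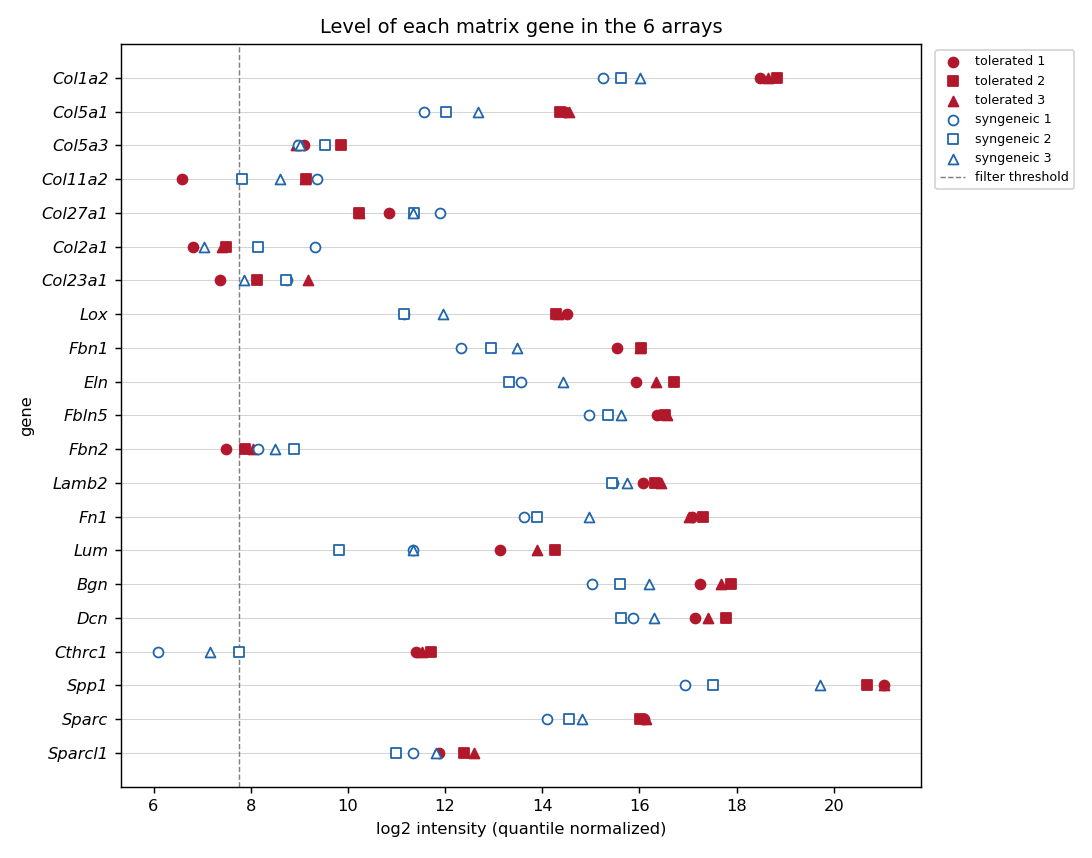
Level of each of the 21 genes in the 6 arrays, as quantile-normalized log2 intensity (x axis), with tolerated arrays as filled red and syngeneic arrays as open blue symbols, 1 shape per replicate number. The dashed line is the filter threshold of 7.76, and positions can be compared between arrays but not between genes. In the 14 genes that rose, the red symbols lie to the right of every blue one, and for Cthrc1 the 3 blue symbols lie under the threshold.

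The fibrillar collagens did not all go the same way, and stretches of DNA before 3 of them are shown here because this family held both genes that rose and the gene that fell. Of the 21 genes 13 had an entry in the RefSeq promoter table (build GRCr8), and the 250 bases before each start were searched on both strands for 5 exact motifs. These were the TATA box spelled TATAAA, the CCAAT box by its own letters, the GC box spelled GGGCGG, the core of the SMAD-bound CAGA box spelled CAGACA, and the AP-1 site spelled TGACTCA. The first and second of the 3 GC boxes of Col11a2 overlap each other. Each sequence below has 100 bases, 5′ to 3′ on the plus strand of the genome, with motif matches in capitals. Col1a2 lies on chromosome 4 (chr4:33518307-33518406), Col5a1 on chromosome 3 (chr3:31606705-31606804) and Col27a1 on chromosome 5 (chr5:81662773-81662872).
Col1a2: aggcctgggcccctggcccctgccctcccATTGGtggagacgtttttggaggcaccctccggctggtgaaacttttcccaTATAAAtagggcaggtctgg
Col5a1: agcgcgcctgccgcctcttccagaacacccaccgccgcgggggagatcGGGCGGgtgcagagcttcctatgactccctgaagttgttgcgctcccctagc
Col27a1: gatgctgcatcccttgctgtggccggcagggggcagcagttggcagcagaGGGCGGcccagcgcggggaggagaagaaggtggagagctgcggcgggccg

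In the Col1a2 sequence the capitals mark a CCAAT box on the minus strand, at bases -221 to -217 counted from the start in the table, and a TATA box at -170 to -165. The Col5a1 sequence held 1 GC box at -127 to -122, and Col27a1 held 1 at -85 to -80. Among the 7 genes with a promoter entry that rose, 2 had a TATA box (Col1a2 and Spp1), 2 a CCAAT box (Col1a2 and Lum), 2 a GC box (Col5a1 and Fbln5) and 2 the CAGA box core (Fbn1 and Sparc). None of the 13 promoters held the AP-1 site. Of all 27457 promoters of this length in the table, 13.1% held the TATA box, 34.3% the CCAAT box, 32.4% the GC box, 16.9% the CAGA box core and 3.98% the AP-1 site. No motif of those searched was in all 7, and these matches are a description of letters, not of sites in use.

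Col1a2, which encodes the alpha2 chain of type I collagen, the main fibre-forming collagen of interstitial tissue, read 18.48, 18.83 and 18.64 on the log2 scale in tolerated grafts, listed by replicate number here and below, and 15.24, 15.62 and 16.01 in syngeneic grafts. The lowest tolerated array stood 2.47 log2 units above the highest syngeneic one. As deposited, before normalization, its probe read 375608, 390952 and 540318 in tolerated and 28057, 45137 and 75066 in syngeneic grafts, in intensity units. Its rise was 8.13-fold (95% interval 5.39 to 12.3, limma, adjusted p = 0.00363), and the call held whichever array was left out.

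Col5a1 encodes a chain of type V collagen, which joins type I collagen in fibrils and limits their width. Its log2 levels were 14.46, 14.36 and 14.54 in tolerated and 11.57, 12.02 and 12.67 in syngeneic grafts, with no overlap. It rose 5.16-fold (3.10 to 8.58, adjusted p = 0.00689) and also held whichever array was left out.

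Col5a3, another type V chain, had levels of 9.09, 9.86 and 8.94 in tolerated and 8.97, 9.53 and 9.02 in syngeneic grafts, and the groups overlapped. Its log2 difference was 0.12 with a 95% interval of -0.64 to 0.88, which excludes the 2.37 measured for Col5a1 but not a smaller change in either direction. The sign of this difference turned to -0.16 without tolerated replicate 2.

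Col27a1, a fibrillar collagen best known from cartilage, was the gene that fell. Tolerated arrays read 10.84, 10.22 and 10.24 and syngeneic arrays 11.90, 11.37 and 11.34 on the log2 scale, so that each syngeneic value exceeded each tolerated one. As deposited, before normalization, the groups overlapped, with 2190, 1321 and 1857 in tolerated and 2358, 2005 and 2937 in syngeneic grafts, in intensity units. The log2 fold change was -1.10 ± 0.26 (SE, n = 3 per group, limma adjusted p = 0.0318). Leaving out tolerated 2, tolerated 3, syngeneic 1 or syngeneic 2 ended this call, with adjusted p up to 0.101, while the log2 change stayed between -1.31 and -0.92 over all 6 such fits.

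Col11a2, a type XI chain of cartilage fibrils, ranged from 6.59 to 9.14 in tolerated and from 7.83 to 9.37 in syngeneic grafts, and its log2 difference of -0.32 had an interval of -2.28 to 1.64. The sign was positive without tolerated replicate 1 (0.51) or syngeneic replicate 1 (0.08). In the GRCr8 gene table Col11a2 lies beside RT1-Ha and RT1-DOa, inside the MHC where the donor kidneys of the groups differed, and whether the probe binds both haplotypes alike was not tested. Col2a1, the main collagen of cartilage, had levels of 6.80, 7.49 and 7.42 in tolerated and 9.33, 8.15 and 7.05 in syngeneic grafts, a mean over all arrays just under the filter, and was not tested. Col23a1, a membrane-bound collagen, overlapped between the groups with a log2 difference of -0.22 (-1.48 to 1.04), which was 0.20 without tolerated replicate 1. Its dimmer probe had a mean of 6.53 and was under the filter. The probes of Col5a3, Col11a2 and Col23a1 had means over the 6 arrays of 9.23, 8.44 and 8.34, near the filter threshold of 7.76, and how far such levels stand above background is not known.

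**Figure D2:**
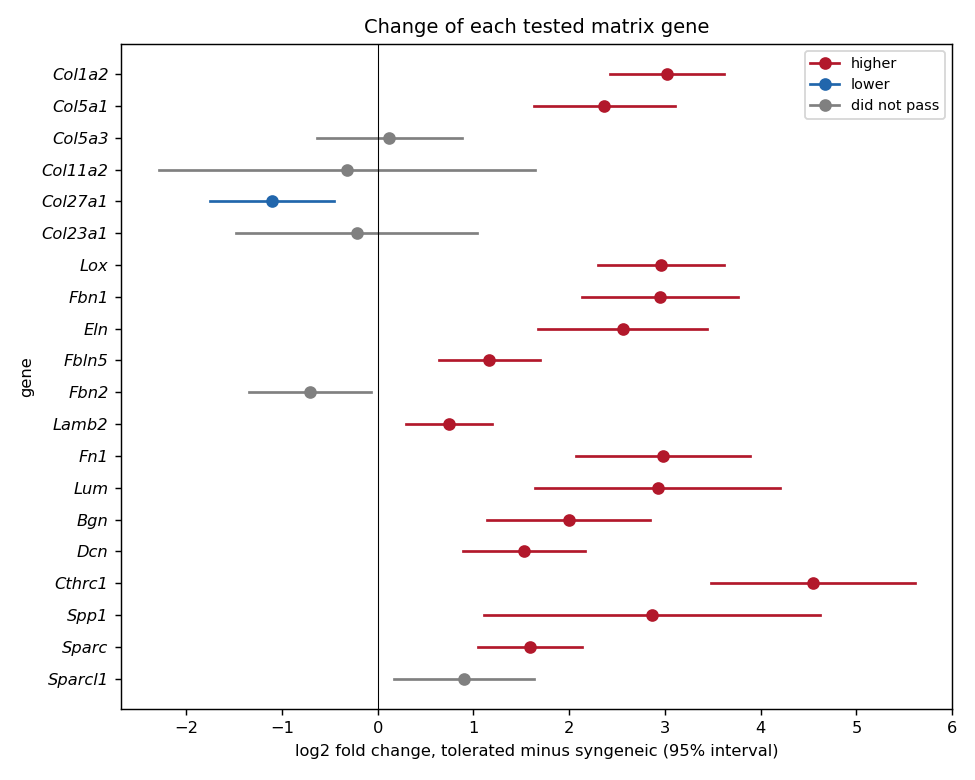
Log2 fold change of each of the 20 tested genes, tolerated minus syngeneic (x axis), as a point with its 95% confidence interval from limma, in red for genes that rose, blue for Col27a1, which fell, and grey for genes that did not pass. Cthrc1 lies farthest to the right at 4.54, and Col1a2, Fn1, Lox, Fbn1, Lum and Spp1 lie between 2.87 and 3.02.

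Genes of elastic fibres and of crosslinking rose with Col1a2, 4 of 5 passing, where 15.5% of all tested named genes rose. Lox encodes lysyl oxidase, the enzyme that crosslinks collagen and elastin. Its log2 levels were 14.51, 14.29 and 14.32 in tolerated against 11.15, 11.15 and 11.96 in syngeneic grafts, a 7.76-fold rise (4.92 to 12.2, adjusted p = 0.00418). The spread within the tolerated group was 0.12 (SD, n = 3), and no tolerated array came closer than 2.33 log2 units to a syngeneic one.

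Fbn1, the gene of fibrillin-1, the backbone of the microfibrils on which elastin is laid down, read 15.55, 16.04 and 16.02 in tolerated and 12.34, 12.94 and 13.49 in syngeneic grafts. It rose 7.71-fold (4.37 to 13.6, adjusted p = 0.00582). Eln, which encodes elastin itself, had 15.93, 16.71 and 16.35 against 13.56, 13.32 and 14.42 and rose 5.90-fold (3.20 to 10.9, adjusted p = 0.00899). Lox, Fbn1 and Eln each passed with any 1 array left out.

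Fbln5, whose product links elastin to microfibrils and to cells, also rose. Its levels were 16.36, 16.53 and 16.57 in tolerated and 14.97, 15.36 and 15.63 in syngeneic grafts, a 2.24-fold rise (1.56 to 3.23, adjusted p = 0.0161). It missed the threshold when arrays were scaled to equal medians (log2 change 0.77, adjusted p = 0.0577) and without tolerated replicate 2 or 3 or syngeneic replicate 2 (up to 0.0601).

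Fbn2, the fibrillin more abundant in developing tissue, did not rise. Tolerated arrays read 7.49, 7.87 and 8.06 and syngeneic arrays 8.15, 8.89 and 8.50, close to the filter threshold, with the groups parted by 0.09 log2 units. The log2 difference of -0.71 (-1.35 to -0.07) had an adjusted p = 0.101, and under median scaling it was -0.95 and passed (adjusted p = 0.048).

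Lamb2 encodes the laminin beta2 chain of mature glomerular and vascular basement membranes. It had 16.07, 16.33 and 16.45 in tolerated and 15.46, 15.43 and 15.74 in syngeneic grafts, which did not overlap but lay 0.33 log2 units apart. The rise was 1.67-fold (1.23 to 2.29, adjusted p = 0.0342), the smallest of the 14. It passed in 1 of the 6 fits with 1 array left out, the one without syngeneic replicate 3, and missed in the others (adjusted p up to 0.111), with no filter on dim probes (0.0613) and under median scaling (log2 change 0.36, adjusted p = 0.246).

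Fibronectin and the small leucine-rich proteoglycans rose, 4 of 4, against 15.5% of all tested named genes. Fn1, the gene of fibronectin, on which collagen fibrils are assembled and which cells bind through integrins, read 17.09, 17.30 and 17.02 in tolerated and 13.62, 13.89 and 14.96 in syngeneic grafts. This was a 7.89-fold rise (4.20 to 14.8, adjusted p = 0.00664) that held with any 1 array left out. Syngeneic replicate 3 was the highest of its group by 1.07 log2 units but stayed 2.06 below the lowest tolerated array.

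Lumican, decorin and biglycan are small proteoglycans that bind collagen fibrils and regulate their growth. Lum had 13.13, 14.26 and 13.89 in tolerated and 11.35, 9.81 and 11.35 in syngeneic grafts and rose 7.60-fold (3.13 to 18.4, adjusted p = 0.0151). Bgn had 17.25, 17.89 and 17.68 against 15.03, 15.59 and 16.21, a 3.99-fold rise (2.21 to 7.20, adjusted p = 0.0146). Dcn had 17.16, 17.78 and 17.42 against 15.87, 15.62 and 16.30, a 2.88-fold rise (1.85 to 4.48, adjusted p = 0.0139).

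All 3 proteoglycan genes had groups that did not overlap, as did 47.3% of all tested probes. Each of the 3 was called in some of the fits with 1 array left out: Lum in 4, Bgn and Dcn in 3 of 6. Lum was lost without tolerated replicate 2 or 3 (adjusted p up to 0.0552), Bgn without tolerated replicate 2 or 3 or syngeneic replicate 2 (up to 0.0567), and Dcn without tolerated replicate 3 or syngeneic replicate 1 or 2 (up to 0.0528). In the GRCr8 gene table Dcn and Lum are direct neighbours on chromosome 7.

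Matricellular proteins are secreted into the matrix and signal to cells rather than bear load. Their genes rose in 3 of 4 cases, against 15.5% of all tested named genes. Cthrc1, a protein with a short collagen-like repeat that activated fibroblasts and injured arteries secrete, showed the largest change of the 20 genes. Its log2 levels were 11.40, 11.71 and 11.52 in tolerated and 6.08, 7.76 and 7.15 in syngeneic grafts. Deposited intensities were 3210, 3439 and 4532 against 48.9, 217 and 152.

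The 3 syngeneic values of Cthrc1 lay under the filter threshold, so that the probe was tested because of its tolerated levels. Its rise was 23.3-fold (11.1 to 48.7, adjusted p = 0.00421), it ranged from 17.6-fold to 32.0-fold with 1 array left out, and it passed in all 6 of these fits. With the syngeneic level this dim the size of the fold is uncertain, as signal over background is not known.

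Spp1 encodes osteopontin, a secreted glycoprotein made by tubule cells, above all after injury, and by macrophages. Tolerated arrays read 21.04, 20.69 and 21.04 and syngeneic arrays 16.95, 17.52 and 19.71. The deposited intensities of tolerated replicates 1 and 3 differed (2274552 and 2473505), but quantile normalization gave them the same value. Syngeneic replicate 3 lay 67.0% of the way from the mean of the other 2 syngeneic arrays to the tolerated mean. The rise was 7.30-fold with a wide interval (2.16 to 24.6, adjusted p = 0.0354). Leaving out syngeneic replicate 3 raised the fold to 13.4, leaving out syngeneic replicate 1 lowered it to 4.84, and the call held in 1 of the 6 fits, the one without syngeneic replicate 3 (adjusted p up to 0.111 in the others).

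Sparc encodes osteonectin, which binds collagen and takes part in fibril assembly. It had 16.10, 16.01 and 16.14 in tolerated and 14.11, 14.56 and 14.82 in syngeneic grafts, the tightest tolerated group of the 14 genes that rose (SD 0.07). It rose 3.02-fold (2.07 to 4.39, adjusted p = 0.00854) and passed with any 1 array left out. Its relative Sparcl1 had 11.87, 12.40 and 12.60 against 11.35, 11.00 and 11.81, groups that lay 0.06 log2 units apart. Its log2 difference of 0.90 (0.17 to 1.63) did not pass (adjusted p = 0.0750), but it passed when syngeneic replicate 3 was left out (1.11, adjusted p = 0.0441), with a filter at the median (0.0417) and with an intensity trend and robust variance model (0.0369). Spp1 and Sparcl1 lie in 1 stretch of chromosome 14, with Mepe, Ibsp, Dmp1 and Dspp between them in the gene table.

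**Figure D3:**
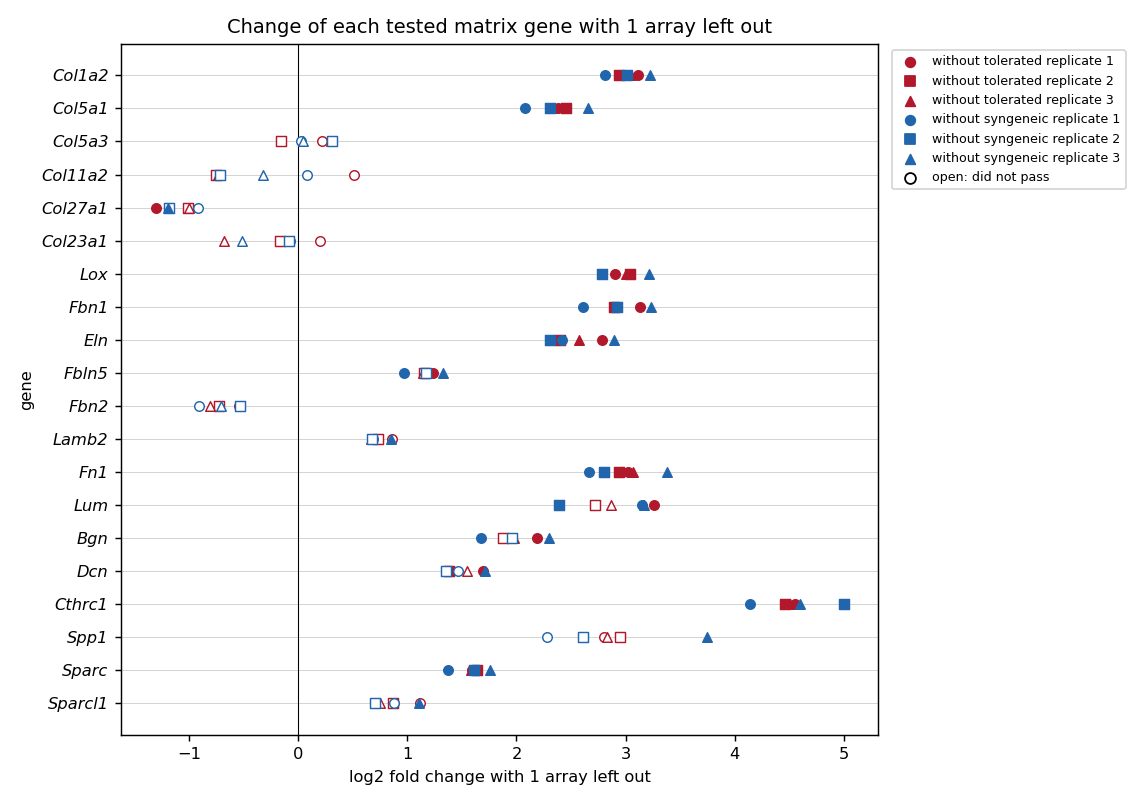
Log2 fold change of the 20 tested genes (x axis) in the 6 fits that leave out 1 array each, red for a tolerated and blue for a syngeneic array, 1 shape per replicate number, filled where the gene passed and open where it did not. Col1a2, Col5a1, Lox, Fbn1, Eln, Fn1, Cthrc1 and Sparc are filled in every fit, Spp1 is filled only without syngeneic replicate 3, and Col5a3, Col11a2 and Col23a1 have symbols on both sides of 0.

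Of the 14 genes that rose, 8 therefore passed in all 6 fits (Col1a2, Col5a1, Lox, Fbn1, Eln, Fn1, Cthrc1 and Sparc) and 6 did not. The share of all risen probes that passed in all 6 fits is not given here. Whether 8 of 14 is a large share therefore cannot be said. Within the syngeneic group, replicate 3 was the highest array for 13 of the 14, Cthrc1 being the exception. The same array was highest for 81.7% of all probes that rose. On the way from the mean of syngeneic replicates 1 and 2 to the tolerated mean, replicate 3 stood at 4.98% for Cthrc1, at 17.9% for Col1a2 and at 67.0% for Spp1, with a median of 32.6% over the 14 genes and 37.6% over all probes that rose. Within the tolerated group, replicate 1 was the lowest for 9 of the 14, against 34.5% of all probes that rose. Averaged over the 20 genes and centred on the 6 arrays, log2 levels stood at 0.55, 0.97 and 0.94 in tolerated grafts. Syngeneic grafts stood at -1.05, -0.95 and -0.47.

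Markers of several cell types moved with these genes, and their part in the result was not tested. Of 9 tested fibroblast, smooth muscle and mesangial markers 6 rose, and 9 of 9 macrophage and dendritic cell markers, 6 of 9 T cell markers and 7 of 9 markers of injured tubules. Over the 4955 tested genes with a name 15.5% rose and 17.2% fell. The mean level of the fibroblast, smooth muscle and mesangial list, relative to all arrays, was 0.74 to 0.87 in tolerated arrays and -1.07 to -0.33 in syngeneic ones, and that of the macrophage list was 1.42 to 1.61 and -2.08 to -0.47. T cell markers had 0.79 to 1.34 and -2.05 to -0.05, and injured tubule markers 0.93 to 1.46 and -1.59 to -0.35. All 12 proximal tubule markers tested fell, from between 1.26 and 1.92 in syngeneic to between -1.97 and -1.39 in tolerated arrays. Endothelial markers stood at -0.34 to 0.06 in tolerated and -0.06 to 0.32 in syngeneic arrays, which overlapped. Of 5 tested podocyte markers 1 fell, and none of 9 markers of the thick ascending limb, distal tubule and collecting duct passed.

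With 1 array left out, 2 to 6 fibroblast, smooth muscle and mesangial markers, 4 to 9 macrophage markers, 0 to 7 T cell markers and 2 to 8 injured tubule markers rose, each highest without syngeneic replicate 3. The share of all tested probes that rose moved likewise, from 3.11% to 4.57% in the fits that kept syngeneic replicate 3 to 15.1% without it. The fibroblast list had 2 without tolerated 1 or 3 and 3 without tolerated 2, the macrophage list 4 without tolerated 1 or 3, the T cell list 1 or 0 in each fit that kept syngeneic 3, and the injured tubule list 2 to 4 without tolerated 1, tolerated 2, syngeneic 1 or syngeneic 2. Timp1 is in the injured tubule list and also among the inhibitors described last.

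**Figure D4:**
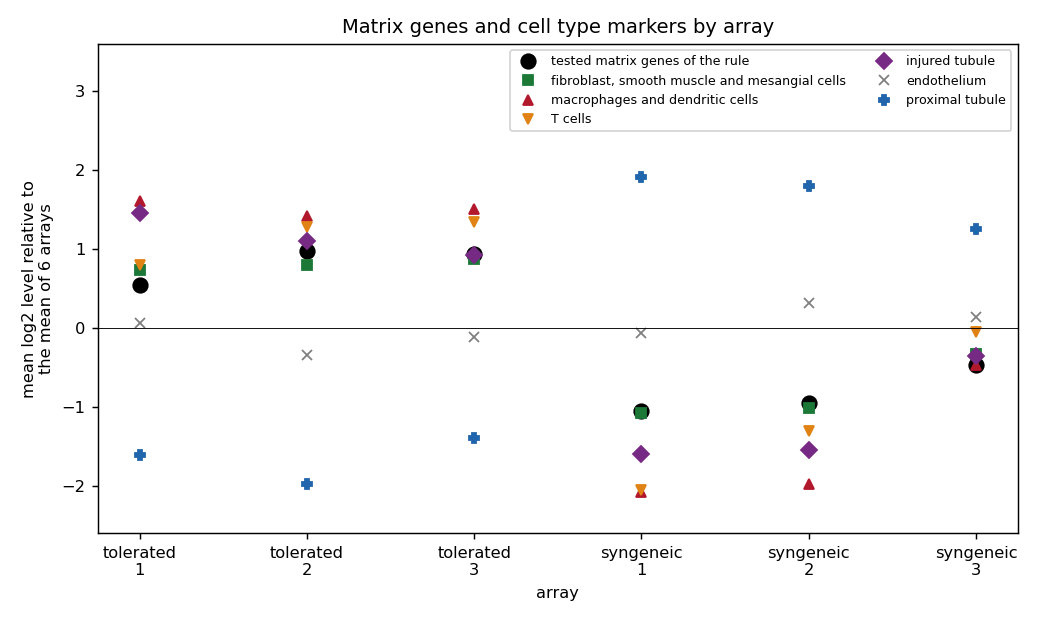
Mean log2 level of each list in each array, relative to the mean over the 6 arrays (y axis), for the 20 tested matrix genes (black circles) and for markers of 6 cell types or states. Matrix genes, fibroblast, macrophage, T cell and injured tubule markers are above 0 in the 3 tolerated and below 0 in the 3 syngeneic arrays, nearest to 0 in syngeneic replicate 3, and proximal tubule markers are the reverse.

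Genes that make, modify, remove or bind these proteins were counted as 5 lists. The counts are to be read against the 15.5% of tested named genes and 12.4% of all tested probes that rose. With 1 array left out, 3.11% to 15.1% of all tested probes rose. Of 11 tested genes of collagen folding and processing 5 rose, with a median log2 change of 0.50, and 2 to 5 did with 1 array left out (2 without tolerated 2, tolerated 3 or syngeneic 2). Serpinh1, the gene of the collagen chaperone HSP47, rose 2.48-fold (1.86 to 3.31, adjusted p = 0.00742) and Plod2, a lysyl hydroxylase of collagen, 3.03-fold (1.99 to 4.62, adjusted p = 0.0113), and both held whichever array was left out. The transglutaminase gene Tgm2 rose 3.45-fold and Pcolce, an enhancer of procollagen trimming, 1.87-fold, in calls that held in 3 and 2 of the 6 fits.

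Of 11 tested genes of the pathway of transforming growth factor beta, which drives matrix production by fibroblasts, 5 rose (median 0.66), and 1 to 6 did with 1 array left out, with 2 or fewer in each fit that kept syngeneic replicate 3. Tgfb3 rose 2.72-fold (adjusted p = 0.0112) in a call that held in all 6 fits, and Ltbp2, a protein of microfibrils, 3.97-fold in one lost without syngeneic replicate 2. Tgfb1 rose 5.49-fold (adjusted p = 0.0169) and Tgfb2 2.88-fold (adjusted p = 0.0229), in calls that held only without syngeneic replicate 3.

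Of 16 tested genes of matrix degradation 6 rose and 1 fell (median 0.73), and 3 to 7 rose with 1 array left out (3 without tolerated 1, tolerated 2, syngeneic 1 or syngeneic 2). With arrays scaled to equal medians 6 rose and 3 fell. The protease inhibitor genes did not go the same way. Timp1 and Timp2 rose 7.77-fold and 4.87-fold and held in all 6 fits, and Timp3 fell by 2.09 on the log2 scale (adjusted p = 0.0214), a call that held only without syngeneic replicate 3. Mmp7, the protease matrilysin, rose 22.6-fold (5.82 to 87.9, adjusted p = 0.015), and 40.0-fold without syngeneic replicate 3, in a call that held in 2 of 6 fits. Mmp12, the macrophage elastase, rose 5.40-fold, and 8.16-fold without syngeneic replicate 3, the one fit in which its call held.

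Among 9 tested receptors for matrix 4 rose (median 0.96), and 1 to 4 did with 1 array left out (1 without tolerated 2, syngeneic 1 or syngeneic 2). Sdc1 (2.90-fold) was called in all 6 fits, Cd44 (6.14-fold) and Itgb1 (1.95-fold) in 2 and Itgb4 (3.11-fold) in 1. Of 15 other matrix and basement membrane genes 4 rose and 1 fell (median 0.55), and 3 to 5 rose with 1 array left out. Ccn5 (8.07-fold), Efemp2 (2.91-fold) and Prelp (2.51-fold) held in all 6 fits, and the fall of Matn1 by 1.77 on the log2 scale only without tolerated replicate 3. Ecm1 rose by 0.73 on the log2 scale (limma adjusted p = 0.0363), in a call that held only without syngeneic replicate 3.

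**Figure D5:**
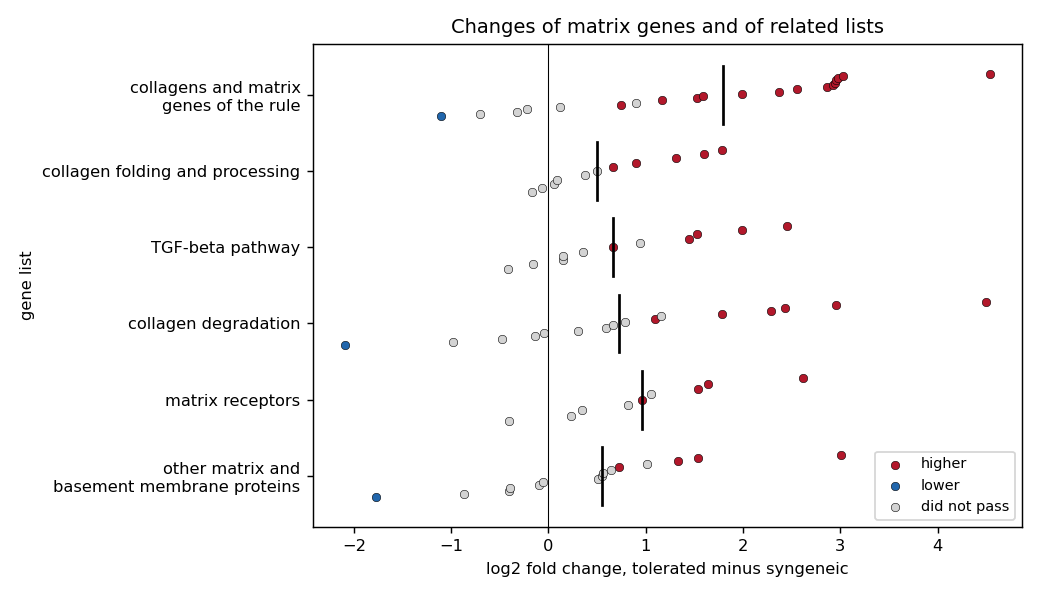
Log2 fold change, tolerated minus syngeneic (x axis), of each tested gene of the collagen and matrix set and of 5 lists of related genes (y axis), red where it rose, blue where it fell and grey where it did not pass, with a black bar at the list's median. The medians are 1.79 for the 20 collagen and matrix genes and 0.50 to 0.96 for the related lists.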

How the data were processed

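Total RNA of the 6 samples was amplified from 0.5 µg per sample and hybridised to the Applied Biosystems rat genome survey array, per the labels' protocols. The deposited files hold raw intensity per probe and log2 values by the authors, whose columns ranked probes as the raw columns did (rank correlation 1) and shared a median of 9.36. The steps behind either table, background subtraction included, are not stated in the labels. Deposited raw intensity medians were 745 to 991 in tolerated and 421 to 707 in syngeneic arrays. All columns belonged to samples of the series.

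Raw intensities were quantile normalized and taken to log2. Of 26857 probes, 20142 with a mean over the 6 arrays above the lower quartile (7.76) were tested with limma 3.58.1 in R 4.3.3 (lmFit, eBayes, two-sided, no covariate), adjusted by Benjamini-Hochberg over all of them at 0.05. The code was tested on simulated data. Symbols came from the platform annotation, updated through Entrez identifiers to RefSeq GRCr8 (6081 of 6104 matched). A gene's brightest probe was used. The number of arrays limits the precision. The genes, lists and rule for named genes (every gene of the rule, and up to 4 genes of each related list, ranked by size of change among passing genes) were chosen with earlier results of these data known. Timp3, Ecm1 and the marker Umod fall outside that rule and were named after their values were seen. Alternatives were another scaling, the deposited log2 values, normexp, other filters, another variance model, all probes of a gene, the replicate number as a block, and each array left out.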

Additional observations from a re-analysis of the deposited data

How the results depend on the processing

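The number of collagen and matrix genes that rose was 12 to 15 under 7 settings that keep all arrays (equal medians, deposited log2 values, normexp, no filter, a filter at the median, a trend and robust model, the mean of a gene's probes), and 8 to 15 with 1 array left out. The share of all tested probes that rose was 6.84% with no filter and 8.61% under equal medians. It was 15.3% with the trend and robust model and 21.9% with the filter at the median. With 1 array left out it was 3.11% to 15.1%. The number of collagen and matrix genes that fell was 2 under equal medians, with Fbn2 added, and 0 to 1 with 1 array left out. The median log2 fold change was 1.41 under equal medians and 2.46 with a filter at the median, where 16 genes were tested, and 1.57 to 1.79 with 1 array left out. Over all tested probes, equal medians shifted the median change to -0.15 (from -0.02), and 37.5% of the calls were then rises (49.1% before). The number of all probes that differed was 1610 to 6046 with 1 array left out. Deviations of same-numbered arrays from their group means correlated at -0.002, 0.011 and 0.054, and not every array correlated best with its own number. With so few arrays per group, these values cannot show whether the replicate numbers pair the samples. With the replicate number as a block, 10 genes rose, 1 fell and 1886 probes differed, with Dcn, Lamb2, Lum and Spp1 no longer passing. In that fit 3.88% of all tested probes rose. Signs turned in genes that did not pass: Col11a2 (0.51 without tolerated replicate 1, 0.08 without syngeneic replicate 1), Col23a1 (0.20 without tolerated replicate 1) and Col5a3 (-0.16 without tolerated replicate 2). Over the 6 fits these genes ranged from -0.75 to 0.51, -0.68 to 0.20 and -0.16 to 0.31. The causes of these shifts were not tested. Signal over background is unknown, which limits what can be said of the dim probes.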
